A study of Glycine max with 8 samples.

Results

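The 5 arrays of whole soybean seed (Glycine max, cultivar Suzumaru) described here set seed imbibed for 8 h against dry seed. They were chosen by their titles, as the 2 arrays of dry seed and the 3 arrays of 8 h seed among the 8 arrays of the series, and the other 3 arrays, of seed imbibed for 16 h, entered only the shared estimate of the spread and the levels quoted for comparison. The dry group was seed at 0 h, and the labels do not say whether it went through the soak. The 8 h seed was soaked in 1% hypochlorous acid, washed and left on wet cotton without light at 25 °C, and only seeds with over 0.06 g of water uptake were taken. The 16 h seed was treated alike and had germinated or gained over 0.33 g of water. Each stage was a lot of 20 to 25 seeds, split into 3 portions for milling, so each 8 h array is a portion of 1 lot of seed. The p-values therefore measure the spread between portions of 1 lot, which may be technical, and time and selection on water uptake cannot be told apart. All groups carried the same cultivar, and the labels name no mutant, transgene or other treatment.

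Imbibition is the uptake of water by a dry seed and the start of germination. A mature dry seed holds messenger RNA stored from seed development, from which the first proteins can be made as respiration and translation resume. New transcription then adds to the stored messages while many of these are degraded, and the embryo begins to elongate only later. Messages for storage proteins and for desiccation protection, such as late embryogenesis abundant proteins, are known to be plentiful in dry legume seeds.

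Each array measured 42748 soybean probes in 1 colour. Clone and sequence identifiers are the probes' only names in the files, and none of them (0 of 42748) could be matched to the 59048 genes of the soybean gene table. Changes are therefore described over sets of probes and for 4 named ones, and the seed tissue could not be checked against marker genes. Levels are log2 of the processed signal minus the 75th percentile of that array, which is therefore 0 on every array. Against the mean of the E1A spike-ins (RNA of known sequence added to each labelling), this percentile lay at -4.15, -3.76 and -4.30 log2 at 16 h. It lay at -5.67 to -5.17 log2 on the dry and 8 h arrays. Levels at 16 h are compared on the percentile scale only, and a fall or return there may not hold against the spike-ins. The filter required the scanner software's flag for a signal well above background on both dry arrays or on all 3 arrays at 8 h. It left 20473 tested probes, of which 18538 were well above background on all 5 arrays and are called measured in both stages below. The dry arrays detected 20157 and 23362 probes and the 8 h arrays 25355, 26835 and 19559. Dry replicate 1 and 8 h portion 3 stood apart in the median of the negative control spots, at 7.10 and 7.49 intensity units against 3.16 to 3.73 on the other arrays of both stages. Each of the 2 slides held both stages, with dry 1 and 8 h portion 1 on slide 1 and dry 2 and 8 h portions 2 and 3 on slide 2.

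The largest rise among called probes measured in both stages was that of CD417265.1_364. Its level was -0.24 and -0.75 log2 on the dry arrays and 4.57, 5.72 and 3.86 log2 in 8 h portions 1, 2 and 3. Every portion lay more than 4 log2 above the higher dry array, with portion 2 highest and portion 3 lowest. The change from the dry mean of -0.50 ± 0.36 (SD, n = 2) to the 8 h mean of 4.72 ± 0.94 (SD, n = 3) was 5.21 ± 0.44 log2 (SE), or 37.1-fold (limma adjusted p of 0.000492). At 16 h the same probe stood at 7.91, 8.23 and 7.96 log2, above all 8 h portions. The call was lost under 1 of 26 alternative settings, normexp background correction, where the change was 4.24 log2 (limma adjusted p of 0.0562).

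The next largest rise was that of CK605785.1_119, and it took another course. It was at -1.56 and -1.02 log2 in dry seed and at 3.38, 4.23 and 0.93 log2 in 8 h portions 1, 2 and 3. The groups did not overlap, but portion 3 lay over 2 log2 below the other portions, and the SD over the portions was 1.71 log2, the 9th largest among the 18538 probes. The change was 4.14 ± 0.83 log2 (SE), or 17.6-fold (limma adjusted p of 0.0421). That call was lost under 15 of the 26 settings, with changes of 3.28 to 4.42 log2 in those 15. At 16 h the probe was back at -1.01, -1.88 and -0.25 log2 on the percentile scale. The range of the dry arrays lay within the range at 16 h on that scale, and this was not repeated against the spike-ins.

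On the percentile scale, a second probe was also highest at 8 h but did not pass the threshold. It was not back near the dry level on every 16 h array. It stood at -0.98 and -0.67 log2 in dry seed, at 5.23, 3.80 and 2.95 log2 in 8 h portions 1, 2 and 3, and at -1.99, -1.83 and 1.71 log2 at 16 h. The fitted change of 4.82 ± 1.03 log2 (SE) was the largest rise among probes measured in both stages that were not called, with a limma adjusted p of 0.0569. It was picked after its values were seen. On this scale, 144 of 18483 probes well above background on all 8 arrays had every 8 h portion above every dry and every 16 h array. CK605785.1_119 and this probe were the ones that did so by a margin of at least 2-fold. In the opposite direction 285 probes had every 8 h portion below all other arrays, and 0 did so by at least 2-fold. These counts were not repeated on the spike-in scale. Of the 144, 1 was called higher at 8 h, and of the 285, 2 were called lower, against 0.868% and 0.146% of all probes measured in both stages.

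The falls were smaller. CF922331.1_732 stood at 1.10 and 1.13 log2 in dry seed and at -0.82, -0.72 and -0.30 log2 in 8 h portions 1, 2 and 3. All 3 portions lay below both dry arrays by more than 1 log2. The change was -1.73 ± 0.19 log2 (SE), a level 3.31-fold lower, with a limma adjusted p of 0.00209. At 16 h it stood at -0.74, -1.11 and -1.05 log2, a range that overlapped that of the 8 h portions on the percentile scale.

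CB063796.1_495 was at 3.19 and 3.29 log2 in dry seed and at 1.82, 1.49 and 2.08 log2 in 8 h portions 1, 2 and 3. It changed by -1.44 ± 0.20 log2 (SE), or 2.72-fold lower (limma adjusted p of 0.00700). On the percentile scale portion 2 was lowest and portion 3 nearest to dry seed. At 16 h the probe was lower again on that scale, at 0.76, 1.07 and 0.63 log2. The call of CF922331.1_732 was lost under 2 of 26 settings (normexp background and no filter on dim probes) and that of CB063796.1_495 under 5, among them leaving out either dry array.

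**Figure D1:**
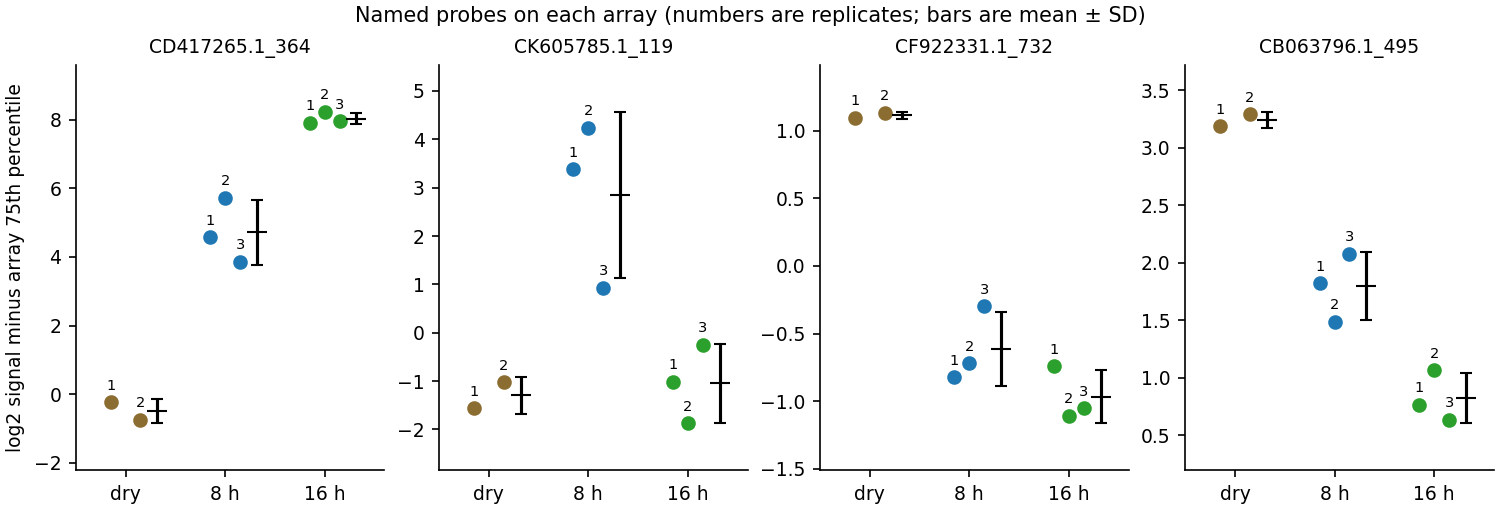
Level of the 4 named probes on each array, as log2 signal minus that array's 75th percentile, with 1 point per array, numbered by replicate, and bars for the mean ± SD of a stage. CD417265.1_364 had means of -0.50, 4.72 and 8.04 log2 in dry seed, at 8 h and at 16 h. On this scale CK605785.1_119 was high at 8 h alone, with portion 3 at 0.93 log2 against 3.38 and 4.23.

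The rises next in size were smaller and their portions lay closer together. The 8 rises that followed in size among called probes measured in both stages were 3.95 to 3.11 log2, or 15.5-fold to 8.64-fold. The third went from -1.56 and -1.16 log2 in dry seed to 2.50, 3.07 and 2.21 log2 in the portions (limma adjusted p of 9.88e-05). The fourth went from 1.15 and 0.97 log2 to 5.22, 5.17 and 4.35 log2 (limma adjusted p of 0.000382). In both, every portion lay more than 3 log2 above both dry arrays, and both stood higher again at 16 h, at 4.24 to 4.30 log2 and at 6.83 to 7.72 log2. The 8 falls that followed in size were -1.31 to -1.07 log2, or 2.47-fold to 2.10-fold.

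Called changes at 8 h were mostly rises. Of the 20473 probes tested, 339 were higher (1.66%) and 40 lower (0.195%) than in dry seed, by limma with a Benjamini-Hochberg adjusted p under 0.05. At an unadjusted limma p under 0.05 there were 1404 higher (6.86%) and 1460 lower (7.13%), so the excess of rises was in the called probes and not in this wider set. The wider set depended on the scaling, since a 75th percentile over only those probes that every one of the 8 arrays detected (the detected probes below) gave 1907 higher and 702 lower. Of the 339, 161 were measured in both stages, with changes of 1.77-fold to 37.1-fold and a median of 3.06-fold. The other 178 passed the filter through the 8 h arrays alone, which favours rises. Of the 40, 27 were measured in both stages, with changes of 1.60-fold to 3.31-fold and a median of 2.04-fold. The other 13 passed it through the dry arrays alone, which favours falls. In whole seed, fewer cells of a type and less RNA per cell cannot be told apart. Without dry replicate 1 the counts were 173 higher and 6 lower, and without 8 h portion 3 they were 533 and 236. Leaving out both of these arrays, which had the higher negative controls, gave 215 higher and 12 lower, where dry seed is 1 array whose spread is borrowed from the other stages.

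In the group means, the tail of large changes was one-sided whether or not a probe was called. Among the 18538 probes measured in both stages, 300 had a mean at 8 h at least 2-fold above dry seed and 67 at least 2-fold below. At a limit of 4-fold the numbers were 48 above and 0 below, and at 8-fold 14 and 0. The limma test called 150 of the 300, 45 of the 48 and 13 of the 14, and 14 of the 67 that were lower. In 135 probes all 3 portions were at least 2-fold above the dry mean, and in 8 all were at least 2-fold below it. Taken singly, portion 1 was near even at 2-fold, with 342 probes above the dry mean and 325 below. Portion 2 had 608 and 237, and portion 3 had 201 and 91. At 4-fold the numbers were 59 and 8, 122 and 2, and 36 and 1 in portions 1, 2 and 3. In the brightest of the 10 signal classes described below, 8 probes rose and 15 fell by at least 2-fold.

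Small shifts had no settled direction. Over all tested probes the median change was -0.10 log2, with quartiles at -0.26 and 0.088 log2, but it was 0.011 log2 with the percentile over detected probes and -0.21 log2 with each array centred on its median. The 3 portions all lay above both dry arrays in 2407 probes (11.8%) and all below in 4301 (21.0%). More probes were below than above also with quantile normalization (18.2% against 13.7%), with median centring (17.7% against 7.86%) and on the scale of the E1A spike-ins, RNA of known sequence added to each labelling (17.9% against 7.59%). With the percentile over detected probes the order turned, with 12.1% below and 17.2% above.

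**Figure D2:**
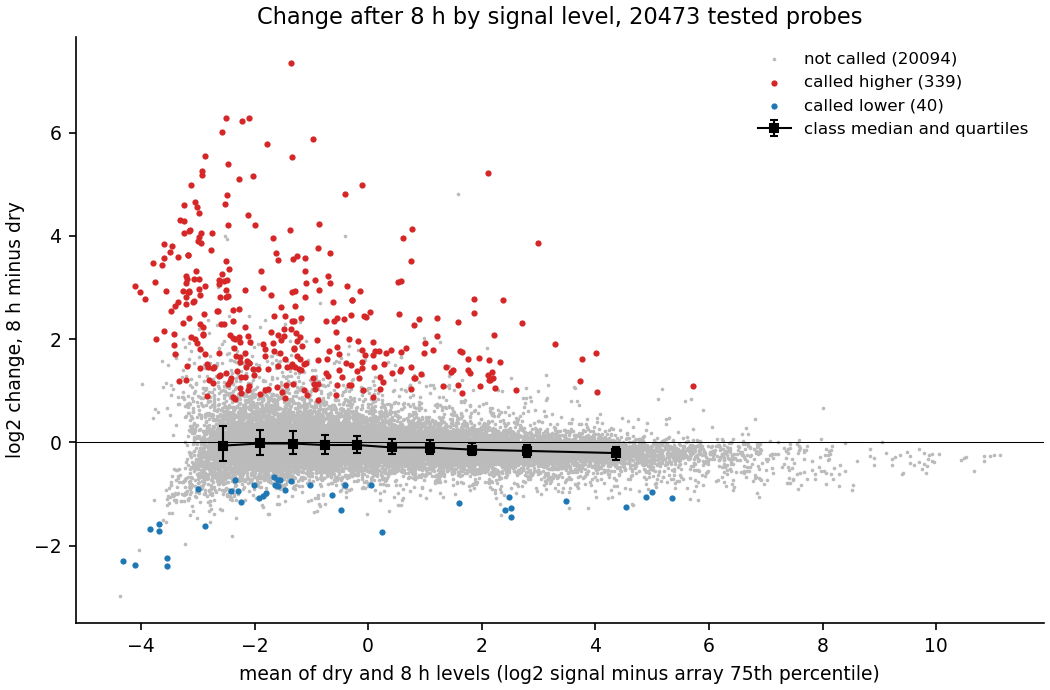
Log2 change of 8 h against dry seed (vertical) against the mean of the dry and 8 h levels (horizontal, log2 signal minus the array's 75th percentile) for the 20473 tested probes. Called probes are coloured, 339 higher in red and 40 lower in blue, and black squares with bars give the median and quartiles of 10 equal classes by level, whose medians go from -0.062 to -0.21 log2.

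Clone names that begin with GMFL made up 30.0% of tested probes (6132), 43.1% of the probes called higher (146 of 339) and 17.5% of those called lower (7 of 40). No test of this difference was made, and the names give no function.

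Some of the rises started from below the range of detection. All 3 portions but neither dry array gave a signal well above background for 140 probes, and limma called 102 of these higher, against 1.66% of all tested probes. They passed the filter through the 8 h arrays alone and so had to be higher there, and neither that count nor their p-values support a rise. For such probes the change has only a bound. It sets the 8 h mean against a dry mean in which each array counts at the probe's own signal or at that array's lowest signal well above background, whichever was higher. Of the 140 probes, 135 had an 8 h mean above that dry mean, and their median bound was at least 3.16-fold. Over the 102 called, a choice that favours large bounds, the median was at least 3.91-fold. Among these the bound was at least 2-fold in 93, at least 4-fold in 47 and at least 8-fold in 20. The highest bound, at least 50.3-fold, belonged to a probe at 2.01, 2.82 and 2.09 log2 in the 3 portions. Its dry signals of -4.12 and -5.95 log2 were not well above background, and it stood at 5.31, 5.16 and 5.19 log2 at 16 h. Another 76 of the 339 were well above background on all portions and on 1 dry array. They too passed the filter through the 8 h arrays alone, and their calls do not support a rise.

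By the flags, loss of detection by 8 h was rarer. Only 10 probes were well above background on both dry arrays and on none of the 8 h portions. Limma called 7 of these lower, against 0.195% of all tested probes, with the same limit on what the calls support. The counts of gain and loss are not like for like, since loss asks for no flag on 3 arrays and gain on 2. Portions 1 and 2 also passed dimmer signals, down to -3.97 and -4.32 log2, than the dry arrays, at -2.91 and -3.78 log2. The highest bound among the 10 was at least 2.55-fold lower, for a probe at -2.59 and -2.11 log2 in dry seed and at -4.55, -4.80 and -4.86 log2, not well above background, at 8 h. A further 6 of the 40 lower probes were still well above background in 1 or 2 portions. They passed the filter through the dry arrays alone, with the same limit.

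Detection differed between the portions. Of the probes on neither dry array, 2962 were well above background in 1 portion, 1654 in 2 portions and 140 in all 3. Portion 2 accounted for 1976 of the 2962, portion 1 for 803 and portion 3 for 183. Of the 1141 probes on both dry arrays and 2 portions, 1139 were missing in portion 3, the array with the negative controls at 7.49 intensity units. The dimmest signal that passed the flag lay at -2.81 log2 in portion 3 and at -3.97 and -4.32 log2 in portions 1 and 2, against -2.91 and -3.78 log2 on the dry arrays. The part of this floor in the calls was not tested beyond the counts without these arrays.

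To set the size of the changes against the signal level, the tested probes were put into 10 equal classes by the mean of their dry and 8 h levels, with class 1 dimmest and class 10 brightest. These are classes of spot brightness and do not rank transcripts by abundance. The median absolute change was 0.35 log2 in class 1, fell to 0.17 log2 in class 7 and was 0.22 log2 in class 10. Only 459 of the 2048 probes in class 1 were measured in both stages, and over probes so measured the dimmest of 10 classes had 0.22 log2, the same as the brightest. The median SD over the 3 portions was 0.36, 0.19 and 0.23 log2 in classes 1, 7 and 10. The ratio of change to SD lay between 0.888 and 0.959 over the 10 classes, so the median change was below the median portion SD in each. What ratio the spread alone would give was not worked out, so these medians are not sizes of established changes. The narrow range of 0.888 to 0.959 belongs to these classes on the percentile scale. The ratio ran from 0.870 to 0.999 with classes from the dry arrays and from 0.884 to 1.04 with classes from the 16 h arrays. With the percentile over detected probes it ran from 0.779 to 0.853. It ran from 0.539 to 0.970 with spike-in centring, from 0.735 to 1.12 with median centring and from 0.790 to 1.11 with quantile normalization. The dry arrays differed less, with a median SD of 0.27 log2 in class 1, 0.081 in class 7 and 0.076 in class 10.

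The share of called rises by level depended on which probes and arrays set the classes. In class 1, 128 of 2048 probes were called higher (6.25%) and 13 lower (0.635%). In class 3, where 2008 of 2047 were measured in both stages, 49 were called higher (2.39%) and 5 lower. In class 10, 5 were called higher and 5 lower (0.244% each). Changes of at least 2-fold numbered 222 rises and 72 falls in class 1, 90 and 6 in class 3, and 8 and 15 in class 10. Among probes measured in both stages and split into 10 classes of their own, the dimmest class had 0.485% called higher, and the second to sixth classes had 1.08% to 1.35%. The high share in class 1 was therefore not seen among probes measured in both stages.

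Bright probes shifted down a little as a class. The median change was -0.062 log2 in class 1, -0.021 in class 3, -0.10 in class 7 and -0.21 in class 10. In class 10 the groups did not overlap in 32.5% of probes on the lower side and in 2.54% on the higher side. The class 10 median was -0.18 log2 on the spike-in scale, -0.31 log2 with each array centred on its median and -0.092 log2 with the percentile over detected probes. Quantile normalization, which gives all arrays 1 distribution, put it at 0.0017 log2, so this fall of bright probes does not hold under that scaling.

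The trend with level also depended on which arrays set the classes. With classes made from the dry arrays alone, the median change went from 0.12 log2 in the dimmest class to -0.22 log2 in the brightest. In the dimmest and brightest of these classes, 9.81% and 0.0488% of probes were called higher. Only 500 of the 2048 probes in that dimmest class were measured in both stages. Those that passed the filter through the 8 h arrays alone favour rises there. The dry arrays set both the class and the change, so this trend is in part built in. With classes made from the 16 h arrays, which do not enter this comparison of means, the median change went from -0.28 log2 in the dimmest to -0.12 log2 in the brightest. In those classes called rises became more frequent with the 16 h level, from 0.146% in the dimmest to 4.20% in the brightest. The downward shift of the brightest class was thus common to all 3 ways of making classes, and its excess over the dimmest class was not.

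**Figure D3:**
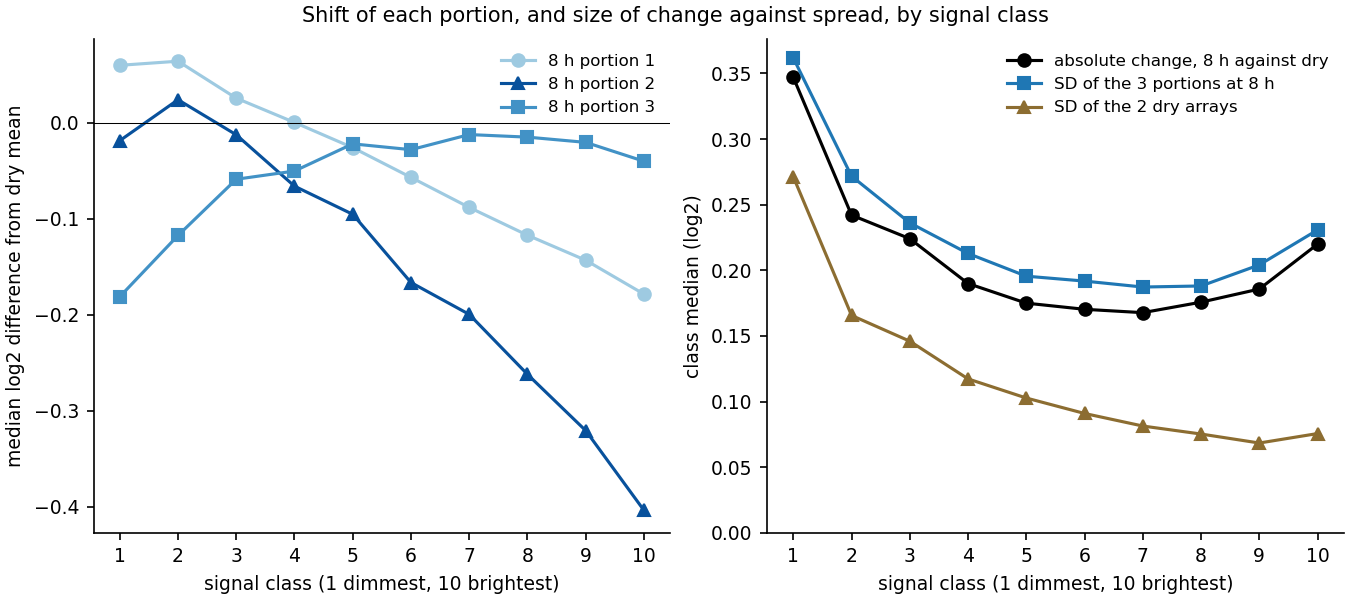
Left, median log2 difference of each 8 h portion from the dry mean in 10 signal classes. Right, class medians of the absolute change, of the SD of the 3 portions and of the SD of the 2 dry arrays, all in log2. Portion 2 falls to -0.40 in class 10 and portion 3 only to -0.040, and the absolute change and the portion SD run side by side.

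The 3 portions moved to different extents. Over the 18538 probes measured in both stages, portion 2 had 608 probes at least 2-fold above the dry mean, portion 1 had 342 and portion 3 had 201. At 8-fold above, the numbers were 30, 12 and 7 in the same order. At least 2-fold below the dry mean were 237 probes in portion 2, 325 in portion 1 and 91 in portion 3. The 3 differences share the dry mean, so they are given side by side only. The dry arrays themselves were at least 2-fold apart in 208 of these probes.

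These counts and the class shifts depend on the scale. In class 10 the median difference from the dry mean was -0.40 log2 in portion 2, -0.18 in portion 1 and -0.040 in portion 3. In class 1 portion 3 was the lowest, at -0.18 log2, against -0.019 in portion 2 and 0.060 in portion 1. On the spike-in scale the class 10 medians were -0.052 log2 in portion 2, -0.30 in portion 1 and -0.19 in portion 3, so the order of the portions among bright probes does not hold there. Over all measured probes portion 2 had a median of -0.19 log2 on the percentile scale and 0.16 log2 on the spike-in scale. Portion 3 is the array with the high negative controls, and the part of these in the shifts was not tested.

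The brightest 100 probes held 37.2% and 37.3% of all soybean signal on the dry arrays. They held 35.9%, 32.7% and 36.2% in portions 1, 2 and 3, and 20.6% to 23.4% at 16 h. Every portion lay below both dry arrays, with portion 2 lowest. A two-sided exact permutation test gave p = 0.2, the smallest that 2 against 3 arrays allow, and 0.6 after Benjamini-Hochberg adjustment over 6 measures per array. The 75th percentile lay at -5.64, -5.17 and -5.67 log2 from the spike-in mean in portions 1, 2 and 3 and at -5.51 and -5.53 log2 in dry seed, so that portion 2 was above the dry arrays and the others below (exact permutation p = 1).

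The portions also ranked unequally within the called probes. Of the 161 probes called higher and measured in both stages, portion 2 was highest in 130, portion 1 in 28 and portion 3 in 3. Portion 3 was lowest in 108, portion 1 in 52 and portion 2 in 1. The median difference from the dry mean over the 161 was 1.45 log2 in portion 1, 1.93 in portion 2 and 1.35 in portion 3. Of the 27 called lower, portion 2 was lowest in 16 and portion 3 nearest to dry seed in 22. The test itself favours probes on which the portions agree, so the closeness of these medians is no result.

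Calls made without a portion can be set beside the values in it, although both use the same dry arrays. Without portion 1, limma called 120 measured probes higher, with a median change of 1.76 log2 in the other portions and 1.57 log2 in portion 1. Without portion 2 it called 94, with 1.72 log2 in the others and 2.19 log2 in portion 2. Without portion 3 it called 315, with 1.44 log2 in the others and 0.82 log2 in portion 3. The rises called without portion 3 were thus smaller in it. The 17 falls called without portion 1 had a median of -0.56 log2 in portion 1, and the 6 called without portion 2 had -1.31 log2 in portion 2. The 221 falls called without portion 3 had a median of -0.91 log2 in the others and -0.23 log2 in portion 3, where the median of all measured probes was -0.032 log2.

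The 2 slides share no array and give 2 separate measurements of the change. On slide 1, 391 of the measured probes were at least 2-fold higher in portion 1 than in dry replicate 1. The same probes had a median difference of 1.40 log2 in portion 2 against dry replicate 2, and 259 of them (66.2%) were at least 2-fold higher there, against 3.16% of all measured probes. In portion 3 against dry replicate 2 the median was 0.63 log2, and 123 (31.5%) were at least 2-fold higher, against 1.31% of all. For the mean of portions 2 and 3 it was 1.00 log2, and 193 (49.4%) were at least 2-fold higher, against 1.74% of all.

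The 350 probes at least 2-fold lower on slide 1 had a median of -0.66 log2 in portion 2 against dry replicate 2, and 88 (25.1%) were at least 2-fold lower there, against 1.65% of all. In portion 3 their median was -0.0045 log2, and 17 (4.86%) were at least 2-fold lower, against 0.707% of all. Across the probes the slide 1 difference correlated with that of portion 2 at r = 0.63 and with that of portion 3 at r = 0.26 (18537 and 18535 probes). With the median of each signal class taken out, r was 0.61 and 0.26. Probes are not independent replicates, and these values only describe the 5 arrays.

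**Figure D4:**
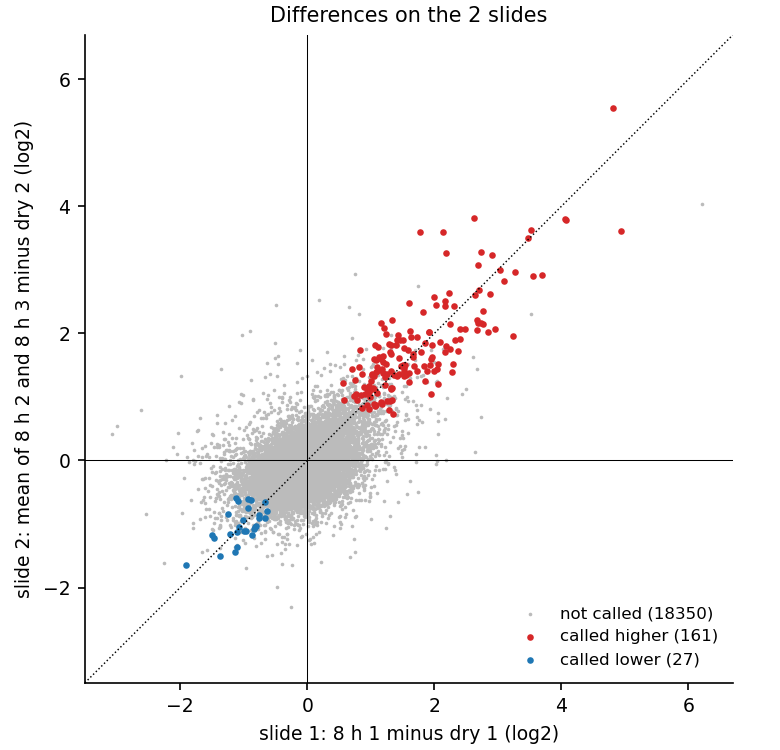
Log2 difference of 8 h from dry seed on slide 1 (horizontal, portion 1 minus dry 1) and on slide 2 (vertical, mean of portions 2 and 3 minus dry 2) for probes measured in both stages, with the diagonal dotted. The 161 probes called higher (red) and the 27 called lower (blue) lie on the same side of 0 on both slides, which their choice favours.

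The calls within a slide rest on few arrays. Slide 1 sets 1 array at 8 h against 1 dry array, with all spread from its 2 arrays at 16 h, and slide 2 sets 2 arrays at 8 h against 1 dry array. Both lists also include probes that passed the filter through the 8 h arrays alone, which favours rises on both slides. Others passed it through the dry arrays alone, which favours falls. The lists are therefore given as a description, and their overlap is in part set by the filter. The overlap was not counted over only the probes measured in both stages. Slide 1 alone gave 378 probes higher (1.85% of those tested) and slide 2 alone 286 (1.40%), by limma adjusted p under 0.05. Of these, 205 were on both lists, which is 54.2% of the slide 1 list and 71.7% of the slide 2 list, and 0 probes higher on slide 1 were called lower on slide 2. For falls the lists held 123 (0.601%) and 25 (0.122%) probes, of which 4 were shared, or 3.25% and 16.0%, and 1 fall on slide 1 was called a rise on slide 2.

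Single probes on which a portion stood alone by at least 4-fold were few, but differences of 2-fold between portions were not rare beside the changes. In 91 of the 18538 measured probes the SD over the portions reached 1 log2. The median SD was 0.21 log2 over the 3 portions, 0.16 log2 over the 3 arrays at 16 h and 0.097 log2 over the 2 dry arrays. A median SD over 2 arrays tends to come out lower than over 3. A portion at least 4-fold above both others, with these within 2-fold of each other, was seen in 1 probe for each of the 3 portions. At a 2-fold limit portion 1 stood alone above in 89 probes, portion 2 in 64 and portion 3 in 88, and alone below in 24, 8 and 49. Portions 1 and 2 were at least 2-fold apart in 320 measured probes, portions 1 and 3 in 660, and portions 2 and 3 in 439. The 8 h mean was at least 2-fold above dry seed in 300 and below it in 67.

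Of the 379 called probes, 161 higher and 27 lower ones were measured in both stages and are followed to 16 h here. The 161 had a median level of -1.20 and -1.02 log2 in dry seed and of 0.75, 1.13 and 0.50 log2 in the 8 h portions. Their median was 2.49, 2.06 and 2.44 log2 on the 16 h arrays. In 142 of the 161 every 16 h array lay above every 8 h portion, against 4272 of all 18538 measured probes (23.0%). In 18 the stages overlapped, and in 1, CK605785.1_119, every 16 h array lay below. Of the 27 called lower, 19 were lower again on every 16 h array, against 9392 of all 18538 measured probes (50.7%). Of the others called lower, 6 overlapped and 2 were higher on every 16 h array. The 16 h values share the 8 h and dry arrays with the calls, so they are given as levels without a test.

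**Figure D5:**
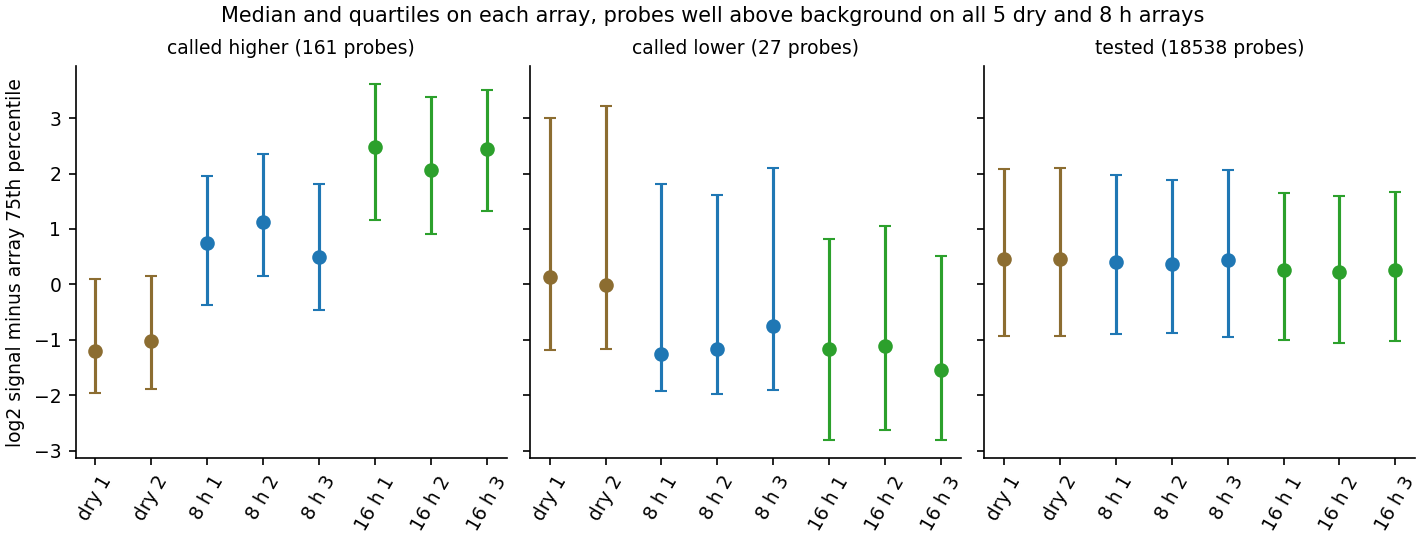
Median level (points) and quartiles (bars) on each array, as log2 signal minus the array's 75th percentile, of the 161 probes called higher, the 27 called lower and all 18538 measured probes. The higher probes go from about -1 log2 in dry seed to between 0.50 and 1.13 log2 at 8 h and above 2 log2 at 16 h. The median of all measured probes stays between 0.23 and 0.46 log2, which the scaling to the 75th percentile largely sets. Against the spike-ins that percentile had a mean of -5.52 log2 in dry seed and -4.07 log2 at 16 h.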

How the data were processed

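Amplification and Cy3 labelling started from 200 ng of total RNA, per the labels' protocols. Per the file headers, Agilent Feature Extraction 10.7.3.1 wrote the processed signal of each spot, an intensity that it had corrected for background and for spatial trend. Well-above-background and outlier flags are other values of the deposited files. The deposited value table holds log2 values that equal log2 of the processed signal minus the array's 75th percentile, to within 0.0027, and its column medians lie between -3.10 and -2.52.

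The processed signal was taken as log2 minus the array's 75th percentile over soybean probes, after leaving out control spots and outlier spots (3 spots among tested probes). The model was 1 mean for each of the 3 stages over 8 arrays (limma 3.58.1, R 4.3.3, lmFit and eBayes, 5 residual degrees of freedom), tested 2-sided with Benjamini-Hochberg adjustment over the 20473 tested probes. This step was tested on simulated data. Exact permutation tests used scipy 1.17.1. Named probes are the 2 largest called rises and the 2 largest called falls that were measured on all 5 arrays without overlap. The comparison, probe rule and alternatives were chosen with earlier results of these data known. The number of arrays, and signal over background in place of depth, limit the precision. Planned gene lists were not run because probes have no gene names. Normexp used the median signal in place of the mean signal. Spike-in centring used 7 of 10 E1A probes.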

Additional observations from a re-analysis of the deposited data

How the results depend on the processing

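Of 26 alternative settings, 19 kept the count of 339 higher probes within 1.5 times, and 10 kept the 40 lower. Higher probes numbered 11 with normexp background (0 lower, against 638 and 1145 at an unadjusted limma p under 0.05), 78 without the filter on dim probes (0 lower, against 1997 and 1103 at an unadjusted p), 147 over probes measured on all 5 arrays (23 lower), and 206 with the filter over 3 stages (7 lower). They numbered 215 without dry 1 and 8 h 3, a setting chosen after seeing the data (12 lower). Lower probes numbered 74 with median centring, 21 with the percentile over detected probes, 13 with spike-in centring, 20 with only the 2 groups, 123 and 25 within slides 1 and 2, and 105 with array weights. Leaving out 1 array gave 173 to 533 higher and 6 to 236 lower. Lower probes fell to 6 without dry 1, 12 without 8 h 2 and 22 without 16 h 1, and rose to 236 without 8 h 3. Rises were 69.3% to 100% of called probes under all 26 settings, against 89.4%, and 75.4% within slide 1. The cause of these moves was not tested, except that the settings with fewer probes or arrays differ by construction.

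Taking the replicate number as a block gave 335 higher and 45 lower, and ended the call of CK605785.1_119 (limma adjusted p of 0.0673). Deviations of same-numbered arrays correlated at -0.029 to 0.20, and 4 of 8 arrays correlated best with their own number, so the numbers were not taken as pairs. The 4 named probes kept their direction in all 26 settings.

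The dimmest class had a median change of -0.28 log2 with classes from the 16 h arrays and 0.12 with classes from the dry arrays, and -0.15 to 0.036 with an array left out. Its median absolute change was 0.22 over probes measured on all 5 arrays, and 0.31 to 0.47 with an array left out (0.47 without dry 2). The brightest class turned from -0.21 to 0.0017 with quantile normalization. Every portion lay above both dry arrays in 13.7%, 10.65% and 7.59% of probes with quantile normalization, over probes measured on all 5 arrays and with spike-in centring, and below both in 18.2%, 21.7% and 17.9%. With median centring and the percentile over detected probes, both chosen after seeing the data, the shares were 7.86% and 17.2% above and 17.7% and 12.1% below. The median SD over the portions, 0.22 log2, was 0.19 with quantile normalization, 0.30 with spike-in centring and 0.32 with median centring.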
